A study of Mus musculus with 12 samples.

Results

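The genes described here are 10 regulators that hold naive and memory T cells in a resting, long-lived state: the transcription factors *Tcf7*, *Lef1*, *Satb1*, *Foxo1*, *Foxo3*, *Foxp1*, *Bach2*, *Klf2* and *Klf3*, and the antiproliferative gene *Tob1*. They were taken by symbol from the 40840 genes of the count files, and all 10 passed the filter on low counts that left 13570 genes for testing. Their levels were followed in donor OTII cells, whose transgenic receptor makes these CD4+ T cells specific for an ovalbumin (OVA) peptide. The donor cells were transferred into WT or Il6-/- recipients on the B6 background. All recipients were then sensitized intranasally with house dust mite extract (HDM) with added LPS, together with OVA, although the sample labels do not mention the added LPS, and CD44hi donor cells were sorted from the mediastinal lymph nodes on Day 3 or Day 5. The 4 groups were WT Day 3, Il6-/- Day 3, WT Day 5 and Il6-/- Day 5, with 3 libraries in each. Only the recipient differed in *Il6*, in all of its cells. The cells sequenced carried the OTII receptor in every group, so every value below describes one receptor specificity. The comparisons asked how priming without IL-6 from the recipient altered these genes at each day.

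As background, a naive CD4+ T cell is kept quiescent by a network of transcription factors. FOXO proteins sit in the nucleus while PI3K and AKT signaling is low and drive receptors for homing and survival, among them CCR7 and the IL-7 receptor, and FOXO1 also sustains KLF2. TCF-1, the product of *Tcf7*, and LEF1 carry T-cell identity and the capacity for self-renewal, and both are usually reduced as cells become terminal effectors. Antigen and IL-2 signals inactivate FOXO proteins and lower KLF2 as cells begin to divide. IL-6 signals in T cells mainly through STAT3.

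Library totals over genes ranged from 16125947 to 26111657 reads (median 19727354). Levels are given in CPM, counts scaled to a library total of 1000000 after TMM scaling, and changes as log2 fold changes with their standard error (SE). A gene was called at an FDR, the Benjamini-Hochberg adjusted p of the edgeR quasi-likelihood test over all 13570 genes, under 0.05. All 10 T-cell markers examined, *Cd4* and *Cd3e* among them, were detected in every library, with a summed level of 7647 to 14356 CPM. The 8 B-cell markers summed to 5.19 to 10.8 CPM and the 10 myeloid and dendritic cell markers to 6.51 to 125 CPM, the highest in WT Day 5 replicate 3. The labels give blood as the tissue, whereas the design text of the series and the study's methods give the mediastinal lymph nodes. *Il6* itself had 0 to 5 reads per library and does not check the labels, because the donor cells were the same in all groups. No source used here states whether the 3 libraries of a group came from separate animals or from pools, so p-values measure the spread between libraries.

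The 10 genes covered a wide range of levels. On a scale of CPM per kilobase of annotated exon, averaged over the 12 libraries, *Tcf7* was highest at 377, followed by *Lef1* at 28.8 and *Klf2* at 19.5. *Foxp1* was at 14.6, *Foxo1* at 12.5, *Satb1* at 7.52, *Klf3* at 5.61, *Bach2* at 3.84, *Tob1* at 3.05 and *Foxo3* at 1.47. The depth behind the low genes was still appreciable, since *Tob1* had 82 to 359 reads and *Foxo3* 131 to 435 reads in a library. The exon lengths are unions over all annotated transcripts and are longer than the main transcript for several genes, so this order is approximate. Across the 4 groups, the highest group mean exceeded the lowest by 1.48-fold for *Tcf7* and by 2.95-fold for *Bach2*, the extremes of the 10 genes.

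**Figure D1:**
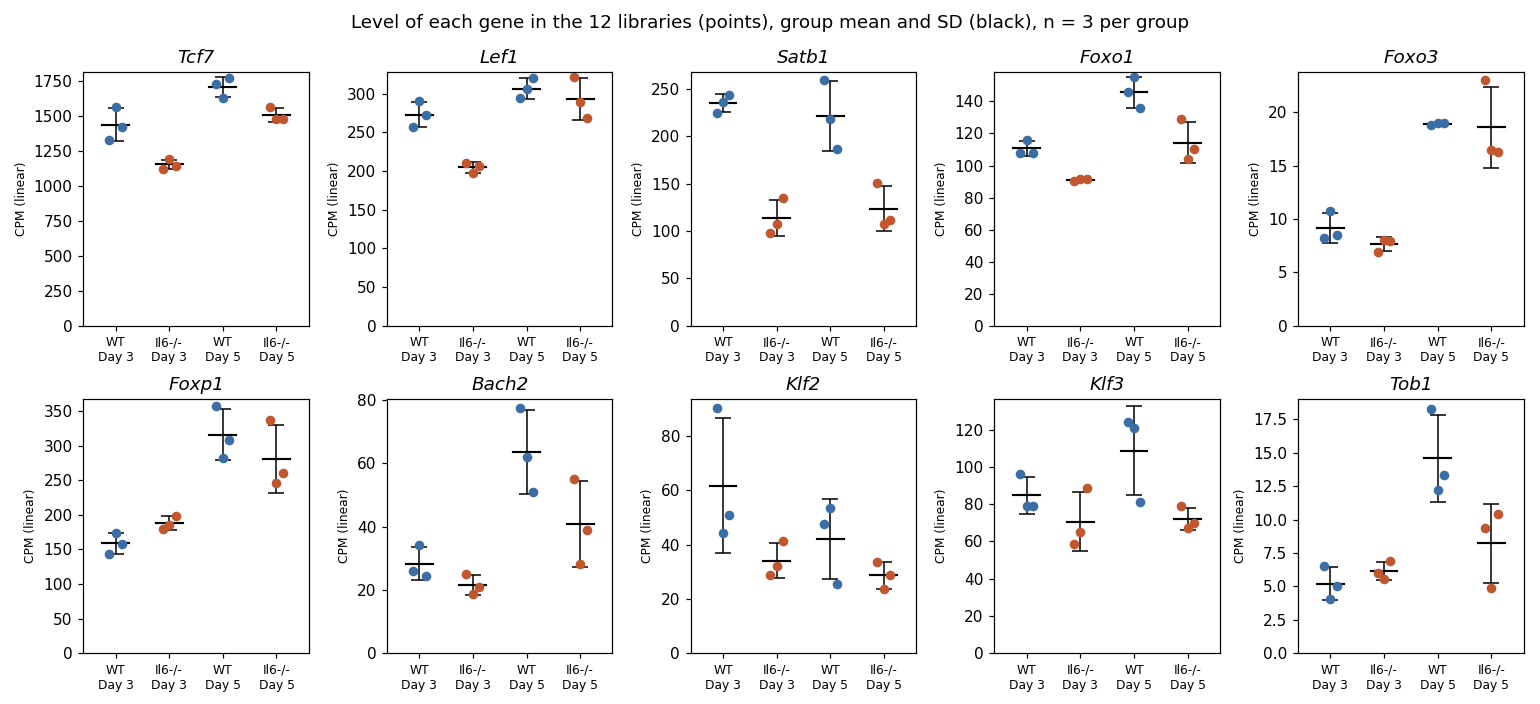
Level of each of the 10 genes in CPM on a linear axis from 0, by recipient genotype and day, with 1 point per library (blue, WT recipients; orange, Il6-/- recipients) and the group mean and SD in black (n = 3). *Satb1* lay at 98.3 to 151 CPM in all libraries from Il6-/- recipients and at 187 to 260 CPM in all libraries from WT recipients, while *Foxo3* and *Foxp1* separated by day.

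*Satb1*, which encodes a chromatin organizer that folds T-cell gene loci and is needed for normal T-cell development, had the largest genotype difference of the 10 genes on Day 3 and was called on both days (chr17:52043114-52140622, GRCm39, minus strand). On Day 3 the WT libraries had 225, 236 and 244 CPM, and the libraries from Il6-/- recipients had 98.3, 108 and 135 CPM. The groups did not overlap, and the level in OTII cells primed in Il6-/- recipients was 2.07-fold lower (log2 fold change -1.05, SE 0.14, FDR = 3.0e-04). On Day 5 the values were 260, 218 and 187 CPM in WT and 151, 108 and 112 CPM in Il6-/- recipients. The Day 5 groups did not overlap either, and the level was 1.79-fold lower (log2 fold change -0.84, SE 0.14, FDR = 0.0044), next to -0.82 for *Tob1*. *Satb1* was called lower without any 1 of the 12 libraries and under each of the 11 other settings on both days. In such bulk samples, fewer cells that express a gene and less RNA per cell cannot be told apart. The 4 listed markers of regulatory T cells were all detected in every library and went opposite ways. *Foxp3*, the defining marker, had group means of 7.60 (WT) and 5.08 CPM (Il6-/-) on Day 3 and of 2.84 and 4.68 CPM on Day 5, and was not called on either day. *Ikzf2* fell on Day 3, from 69.7 to 51.2 CPM (FDR = 0.013). *Il2ra* (from 26.8 to 80.2 CPM, FDR = 9.7e-04) and *Nrp1* (from 22.7 to 49.1 CPM, FDR = 0.0025) rose, and with them the sum, from 111 to 141 CPM in the WT libraries of Day 3 to 165 to 206 CPM in the Il6-/- libraries, and from 187 to 230 to 246 to 327 CPM on Day 5. Of the other marker lists, the 10 T-cell markers summed to 8375 to 9516 CPM in WT against 7647 to 7842 CPM on Day 3 and to 14238 to 14356 against 12331 to 13391 CPM on Day 5, and the 7 markers of CD8 T and NK cells to at most 74.6 CPM in WT against 83.7 to 114 CPM on Day 3, with overlap on Day 5. Single markers of both lists went both ways on Day 3. In WT and Il6-/- recipients, *Trac* had means of 3031 and 2392 CPM, and *Thy1* of 248 and 278 CPM. *Cd8b1* (62.7 and 74.7 CPM) and *Klrb1c* (4.82 and 20.9 CPM) were higher in Il6-/- recipients. *Klrd1* (0.393 and 0.122 CPM) was lower, and *Cd8a* was at 0.835 and 1.04 CPM. The part of these markers in the genotype differences of *Satb1* and the other 9 genes was not tested.

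On Day 3, edgeR called 5 of the 10 genes lower after priming in Il6-/- recipients and 0 higher. DESeq2 and limma-voom called the same genes except *Klf2*, and likewise 0 higher. With the replicate number as a block, which raised the genes called over all from 1861 to 2658, *Foxp1* was called higher. At an unadjusted p under 0.05 without the block, the 5 genes called by edgeR were lower and 0 higher. Of all genes tested, 6.19% were called lower and 7.52% higher in this comparison, and the median log2 fold change was -0.30 over the 10 genes and 0.01 over all genes. Of the genes called, 45.1% were lower, and 60.7% without library scaling, under which the same 5 of the 10 genes were lower. The libraries of both genotypes did not overlap for 7 of the 10 genes, against 36.2% of all genes. *Satb1* was the only one of the 10 to pass both the FDR limit and a 2-fold change, which 1.81% of all genes did in the lower direction. Without Il6-/- Day 3 replicate 1 its log2 fold change was -0.95, under 2-fold.

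The pair of HMG-box factors were both lower on Day 3. *Tcf7* (chr11:52143107-52174619, minus strand) encodes TCF-1 and had 1326, 1559 and 1419 CPM in WT and 1123, 1190 and 1144 CPM in Il6-/- recipients. Its groups were apart, with the level 1.24-fold lower (log2 fold change -0.32, SE 0.07, FDR = 0.0069). *Lef1* (chr3:130903919-131018005, plus strand) encodes the related LEF1 and had 257, 290 and 272 CPM in WT against 210, 197 and 207 CPM in Il6-/- recipients, 1.33-fold lower (log2 fold change -0.42, SE 0.08, FDR = 0.0029). The *Lef1* call held without any 1 library, whereas the *Tcf7* call was lost without WT Day 3 replicate 2 (FDR = 0.054).

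Among the forkhead factors, only *Foxo1* was called on Day 3 by edgeR without the replicate block. *Foxo1* (chr3:52175757-52260642, plus strand) encodes the main FOXO protein of resting T cells and had 108, 116 and 108 CPM in WT and 90.3, 91.6 and 91.4 CPM in Il6-/- recipients. These groups did not overlap, and the level was 1.21-fold lower (log2 fold change -0.28, SE 0.09, FDR = 0.041). The call was lost without any 1 of the 6 Day 3 libraries and without Il6-/- Day 5 replicate 3, with an FDR of up to 0.17, although the log2 fold change stayed between -0.32 and -0.24. It was lost as well without the low-count filter (FDR = 0.059) and with the GC-content offset (FDR = 0.057). *Foxo3* (chr10:42057837-42154007, minus strand), its lower-expressed relative, had 8.19, 10.8 and 8.52 CPM in WT and 6.92, 8.06 and 7.96 CPM in Il6-/- recipients (log2 fold change -0.26, SE 0.17, FDR = 0.35). *Foxp1* (chr6:98902299-99499685, minus strand), a repressor that restrains the exit from quiescence and competes with FOXO1, had the opposite sign. Its libraries had 144, 174 and 158 CPM in WT and 179, 186 and 199 CPM in Il6-/- recipients, apart but not called without the replicate block (log2 fold change 0.25, SE 0.12, FDR = 0.2).

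*Klf2* (chr8:73072726-73075502, plus strand), which drives egress and homing genes, was 1.82-fold lower on Day 3, with 90.3, 44.1 and 50.8 CPM in WT and 28.7, 32.1 and 41.2 CPM in Il6-/- recipients (log2 fold change -0.86, SE 0.27, FDR = 0.047). The groups were apart, but replicate 1 of WT stood well above the other two, and without it the log2 fold change was -0.48 (FDR = 0.25). The call was also lost without 6 other single libraries, at an FDR between 0.05 and 0.17, and was not made by DESeq2 (FDR = 0.062), limma-voom (FDR = 0.058) or with the GC-content offset (FDR = 0.067). The 8 immediate-early genes *Fos*, *Fosb*, *Jun*, *Junb*, *Egr1*, *Dusp1*, *Ier2* and *Atf3*, a list chosen after their values were seen, summed on Day 3 to 885, 965 and 731 CPM in the WT libraries and to 711, 662 and 588 CPM in the Il6-/- libraries. Every WT sum lay above every Il6-/- sum. As the list was chosen after its values were seen, that separation is a description only. On Day 3 the libraries of both genotypes did not overlap for 36.2% of all genes. By edgeR, 2 of the 8 genes were called on Day 3 (smallest FDR = 0.018), against 13.7% of all genes in either direction. The highest sum was in WT replicate 2, which had the lowest *Klf2* level of its group. On Day 5 the sums were 1288 to 2461 CPM. Between the days, 7 of the 8 genes were called in WT and 8 in Il6-/- recipients, against 56.7% and 60.5% of all genes. The part of the 8 genes in the *Klf2* difference and in the day changes was not tested.

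The remaining 3 genes were not called on Day 3. *Klf3* (chr5:64959875-64990261, plus strand), a repressor that KLF factors can induce, had 96.4, 79.1 and 79.1 CPM in WT and 58.6, 64.9 and 88.5 CPM in Il6-/- recipients (log2 fold change -0.26, SE 0.16, FDR = 0.33). *Bach2* (chr4:32238714-32586108, plus strand), which represses effector genes at AP-1 sites, had 26.0, 34.2 and 24.5 CPM in WT and 24.9, 18.8 and 20.8 CPM in Il6-/- recipients (log2 fold change -0.39, SE 0.22, FDR = 0.27). For both, the groups overlapped. *Bach2* was called lower without the low-count filter (FDR = 0.027) and, at the limit, when the Day 3 libraries were fitted alone. *Tob1* (chr11:94102258-94106334, plus strand), which recruits the CCR4-NOT deadenylase to mRNAs and slows T-cell division, overlapped too, with 6.51, 4.05 and 5.05 CPM in WT and 5.97, 5.57 and 6.92 CPM in Il6-/- recipients (log2 fold change 0.24, SE 0.27, FDR = 0.64).

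On Day 5, edgeR without the replicate block called *Satb1* and *Foxo1* lower after priming in Il6-/- recipients and 0 of the 10 genes higher. Limma-voom likewise called 2 lower, and DESeq2 called 5 lower, with *Klf3*, *Tob1* and *Bach2*, and neither called any higher. With the replicate number as a block, which takes same-numbered Day 5 libraries as paired, 6 of the 10 were called lower and 0 higher. Of all genes, edgeR without the block called 3.35% lower and 1.27% higher, or 626 genes. Over all genes DESeq2 called 1127, limma-voom 503 and edgeR with the block 1592, so the counts of these fits stand against other shares. Lower genes made up 72.5% of the calls of edgeR without the block, 56.6% with DESeq2, 75.7% with limma-voom and 53.7% with the replicate block. They made up 59.2% without library scaling and 50.1% without Il6-/- Day 5 replicate 1. All 10 fitted log2 fold changes were below 0, with a median of -0.45 against 0.01 over all genes, and that of *Foxo3*, at -0.02, changed sign without library scaling and without replicate 2 or replicate 3 of Il6-/- Day 5. The libraries of both genotypes did not overlap for 5 of the 10 genes, against 19.6% of all genes. At an unadjusted p under 0.05, 6 of the 10 genes were lower and 0 higher.

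*Foxo1* had 146, 155 and 136 CPM in WT and 129, 104 and 110 CPM in Il6-/- recipients on Day 5. The level was 1.28-fold lower, with the groups apart (log2 fold change -0.35, SE 0.09, FDR = 0.029). This call was lost without any 1 of 4 of the 6 Day 5 libraries, with an FDR of up to 0.15, and when the Day 5 libraries were fitted alone (FDR = 0.1).

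*Klf3*, *Tob1* and *Bach2* had more negative estimates on Day 5 than *Foxo1* and larger standard errors, and edgeR called none of them without the block. *Klf3* had 124, 121 and 81.3 CPM in WT and 78.9, 67.3 and 70.1 CPM in Il6-/- recipients (log2 fold change -0.59, SE 0.16, FDR = 0.052). *Tob1* had 18.3, 12.2 and 13.3 CPM in WT and 9.37, 4.86 and 10.4 CPM in Il6-/- recipients (log2 fold change -0.82, SE 0.26, FDR = 0.083). Both were apart between the genotypes, whereas *Bach2* overlapped, with 77.4, 62.1 and 51.0 CPM in WT and 55.2, 28.2 and 39.0 CPM in Il6-/- recipients (log2 fold change -0.64, SE 0.21, FDR = 0.097). DESeq2 called all 3, at an FDR of 0.011, 0.029 and 0.037. Libraries of the same replicate number deviated together on Day 5, and with the replicate number as a block 4 more genes were called lower: *Klf3* (-0.57, FDR = 0.017), *Tob1* (-0.86, FDR = 0.014), *Bach2* (-0.66, FDR = 0.013) and *Tcf7* (-0.18, FDR = 0.036). The same block raised the share called over all genes, from 626 to 1592 genes. In the fit without the block, leaving out WT Day 5 replicate 3, the library lowest in *Klf3* and *Bach2* among WT, also gave calls for *Klf3* (FDR = 0.0045) and *Bach2* (FDR = 0.044). That library had the highest summed myeloid markers of all 12, at 125 CPM, and the part of these cells was not tested. Without replicate 1 of Il6-/- Day 5, *Bach2* (FDR = 0.011) and *Klf3* (FDR = 0.038) were called as well, and *Klf3* also without WT Day 3 replicate 1 (FDR = 0.046) or Il6-/- Day 3 replicate 3 (FDR = 0.035).

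The other 5 genes differed less on Day 5. *Tcf7* had 1728, 1629 and 1768 CPM in WT and 1562, 1475 and 1475 CPM in Il6-/- recipients, apart but with a log2 fold change of only -0.18 (SE 0.07, FDR = 0.14). *Lef1* had 294, 306 and 320 CPM in WT and 322, 289 and 269 CPM in Il6-/- recipients, with overlapping groups (log2 fold change -0.06, 95% interval -0.23 to 0.10, FDR = 0.72). *Klf2* overlapped too, with 47.5, 53.4 and 25.3 CPM in WT and 33.5, 23.7 and 28.8 CPM in Il6-/- recipients (log2 fold change -0.55, 95% interval -1.14 to 0.04, FDR = 0.29). *Foxp1* and *Foxo3* had log2 fold changes of -0.17 (FDR = 0.46) and -0.02 (FDR = 0.96). Of the WT libraries, replicate 3 had the lowest *Klf2* level, as it did for *Klf3*, *Bach2*, *Satb1* and *Foxo1*.

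**Figure D2:**
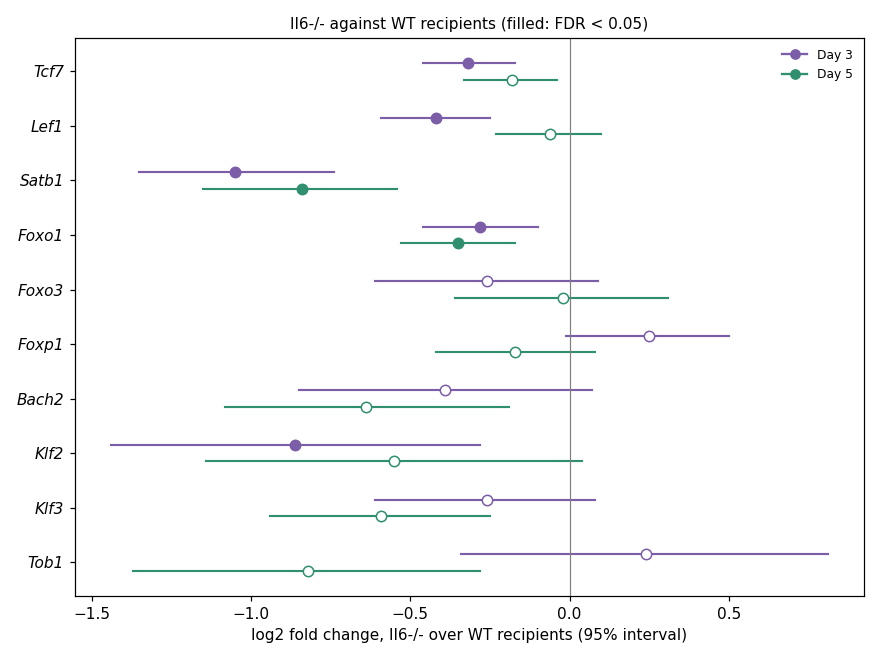
Log2 fold change of each of the 10 genes in OTII cells primed in Il6-/- over WT recipients, on Day 3 (purple) and Day 5 (green), with 95% intervals from the fit of all 12 libraries without the replicate block and filled points for an FDR under 0.05. *Satb1* and *Foxo1* were called on both days, *Tcf7*, *Lef1* and *Klf2* on Day 3, and *Foxp1* and *Tob1* had positive estimates on Day 3 with intervals that included 0.

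A call on one day and not on the other does not show that the days differ, so the difference itself was tested. The genotype change on Day 3 minus that on Day 5 was called for 0 of the 10 genes by edgeR, against 4.92% of all genes, with 3 of the 10 at an unadjusted p under 0.05. Negative differences made up 36.5% of the calls over all genes, and 64.8% without library scaling. DESeq2 called 1 of them, *Lef1*, and limma-voom called 0. *Lef1* was lower by a further 0.35 on the log2 scale on Day 3 (difference -0.35, 95% interval -0.59 to -0.11, FDR = 0.087; with DESeq2 -0.37, FDR = 0.03). *Tob1* had the widest gap, with a difference of 1.06 (95% interval 0.27 to 1.85, FDR = 0.12), and *Foxp1* a difference of 0.42 (95% interval 0.06 to 0.77, FDR = 0.17). Their signs turned between the days in the fitted values, but neither was called on either day by edgeR without the replicate block. *Tob1* was called lower on Day 5 by DESeq2 and with the block, and *Foxp1* higher on Day 3 with the block. With the replicate block, *Tob1* (1.12, FDR = 0.026) and *Foxp1* (0.43, FDR = 0.01) passed, and *Foxp1* also without replicate 1 of Il6-/- Day 5 (0.57, FDR = 0.03). For *Satb1* and *Foxo1* the differences were -0.20 (95% interval -0.63 to 0.23) and 0.07 (95% interval -0.18 to 0.33).

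From Day 3 to Day 5 the forkhead factors and *Bach2* rose in both recipient genotypes. In WT recipients 6 of the 10 genes were called higher and 0 lower by edgeR, with 1 further gene, *Klf3*, at an unadjusted p under 0.05. In Il6-/- recipients 6 were called higher and 0 lower, with no further gene at an unadjusted p under 0.05. DESeq2 and limma-voom likewise called 0 of the 10 lower in either genotype. The share of reads counted on genes also moved with the day, from 60.2% to 62.2% on Day 3 to 52.5% to 56.7% on Day 5, and its part in the day changes was not tested. The counts of the 10 genes stand against a broad change between the days, in which 29.5% of all genes were called higher and 27.1% lower in WT recipients, and 30.4% and 30.1% in Il6-/- recipients. The median log2 fold change over the 10 genes was 0.38 in WT and 0.40 in Il6-/- recipients, against 0.09 over all genes in both. Upper-quartile scaling moved the median of all genes to 0.29 and 0.32, and the share of lower genes among the calls from 47.9% to 33.5% in WT and from 49.8% to 35.0% in Il6-/- recipients.

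*Foxp1* showed the smallest FDR of the 10 genes in WT recipients. Its mean rose from 159 to 316 CPM in WT (log2 fold change 1.00, SE 0.12, FDR = 4.4e-06) and from 188 to 281 CPM in Il6-/- recipients (0.58, SE 0.12, FDR = 5.8e-04). *Foxo3* rose from 9.18 to 18.9 CPM in WT (1.04, SE 0.16, FDR = 5.8e-05) and from 7.65 to 18.6 CPM in Il6-/- recipients (1.28, SE 0.16, FDR = 7.5e-06). *Bach2* rose from 28.2 to 63.5 CPM in WT (1.17, SE 0.21, FDR = 2.5e-04) and from 21.5 to 40.8 CPM in Il6-/- recipients (0.92, SE 0.22, FDR = 0.0017). For these 3 genes, every Day 5 library lay above every Day 3 library of the same genotype, as was the case for 63.3% of all genes in WT and 65.8% in Il6-/- recipients in one direction or the other. *Foxo1* rose by 0.40 (FDR = 9.7e-04) and 0.33 (FDR = 0.004), and *Tcf7* by 0.25 (FDR = 0.0058) and 0.38 (FDR = 1.9e-04), in WT and Il6-/- recipients. The *Tcf7* call in WT recipients was lost with the GC-content offset (0.12, FDR = 0.14; 0.13 and FDR = 0.066 with the block as well) and without the low-count filter (0.18, FDR = 0.075).

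*Tob1* and *Lef1* were called in one genotype each. *Tob1* rose 2.78-fold in WT recipients, from 5.21 to 14.6 CPM (1.48, SE 0.26, FDR = 2.2e-04), and was at 6.15 and 8.20 CPM in Il6-/- recipients (0.42, SE 0.26, FDR = 0.19). The lowest Day 5 value, 4.86 CPM in replicate 2 of Il6-/- recipients, lay below all Day 3 values of that genotype, and without that library the rise was called (0.69, FDR = 0.017). *Lef1* rose from 205 to 293 CPM in Il6-/- recipients (0.52, SE 0.08, FDR = 4.7e-05) and was at 273 and 307 CPM in WT (0.17, SE 0.08, FDR = 0.085). The difference between the genotypes in these day changes is the interaction given above, which was not called for either gene.

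*Satb1*, *Klf2* and *Klf3* were not called between the days in either genotype by edgeR with TMM scaling. *Satb1* was at 235 and 222 CPM in WT (-0.08, 95% interval -0.39 to 0.22) and at 114 and 124 CPM in Il6-/- recipients (0.12, 95% interval -0.18 to 0.43), where it was called higher with upper-quartile scaling (0.35, FDR = 0.045) and with the block and GC-content offset together (0.18, FDR = 0.046). *Klf2* was the only one of the 10 with a lower mean on Day 5 in both genotypes, at 61.7 and 42.1 CPM in WT (-0.56, SE 0.27, FDR = 0.09) and 34.0 and 28.7 CPM in Il6-/- recipients (-0.25, SE 0.28, FDR = 0.45). *Klf3* was at 84.9 and 109 CPM in WT (0.36, FDR = 0.072) and at 70.7 and 72.1 CPM in Il6-/- recipients (0.03, FDR = 0.89). In WT recipients, *Klf2* was called lower without WT Day 3 replicate 2 (-0.75, FDR = 0.035) or WT Day 5 replicate 2 (-0.77, FDR = 0.041). *Klf3* was called higher there without WT Day 5 replicate 3 (0.53, FDR = 0.007), WT Day 3 replicate 1 (0.46, FDR = 0.048) or Il6-/- Day 3 replicate 3 (0.35, FDR = 0.047). The 12 proliferation genes, *Mki67* and *Top2a* among them, all fell over the same interval, with a median log2 fold change of -2.91 for WT and of -2.31 for Il6-/- recipients. On Day 5 their median was 0.67 higher in Il6-/- than in WT recipients, with 12 of 12 estimates above 0, against 0.07 on Day 3. In the Day 5 genotype comparison, edgeR called 0 of the 12 genes, with 11 at an unadjusted p under 0.05. DESeq2 called 3, limma-voom 0 and edgeR with the replicate block all 12, each of them higher. Over all genes, edgeR called 626 in that comparison, DESeq2 1127, limma-voom 503 and edgeR with the block 1592. The part of cell division in the levels of the 10 genes was not tested.

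**Figure D3:**
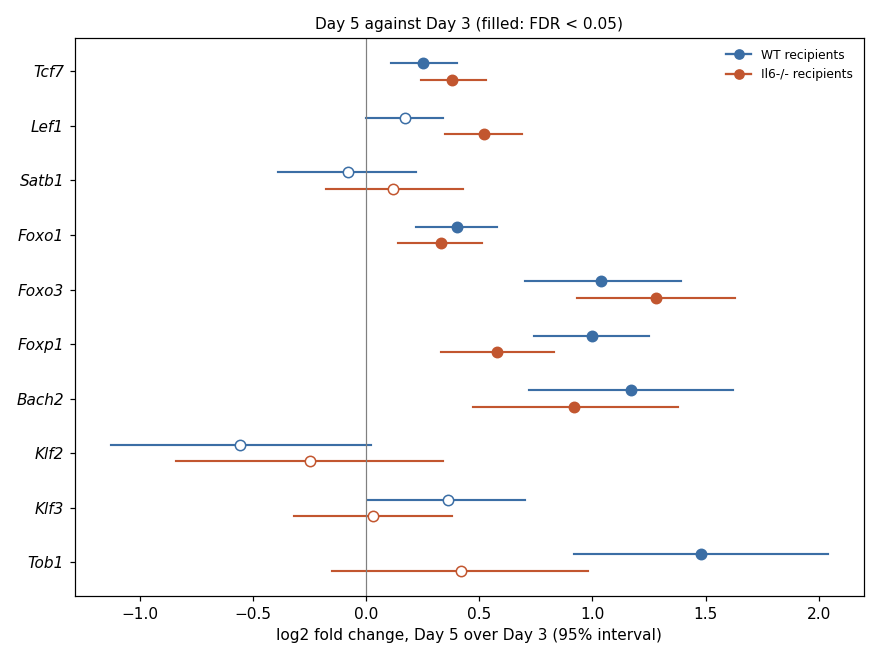
Log2 fold change of each of the 10 genes on Day 5 over Day 3 in OTII cells primed in WT (blue) or Il6-/- (orange) recipients, with 95% intervals and filled points for an FDR under 0.05. *Foxo1*, *Foxo3*, *Foxp1*, *Bach2* and *Tcf7* rose in both genotypes, *Lef1* was called in Il6-/- recipients, *Tob1* in WT recipients, and *Klf2* had negative estimates in both.

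The order of the 4 groups differed between the genes. For *Tcf7* and *Foxo1*, WT Day 5 was highest, apart from Il6-/- Day 5, which overlapped WT Day 3, and Il6-/- Day 3 was lowest and apart. *Lef1* followed the same order of means, with WT Day 5 and Il6-/- Day 5 overlapping. For *Foxo3* and *Foxp1*, both Day 5 groups overlapped each other and lay above both Day 3 groups. For *Satb1* both WT groups overlapped each other and lay above both Il6-/- groups. For *Tob1*, WT Day 5 was highest and apart, and the other groups overlapped their neighbours. *Klf3* had its lowest WT library, at 79.1 CPM, just above the highest of Il6-/- Day 5, at 78.9 CPM, and its other neighbours overlapped. For *Klf2* and *Bach2* no neighbours in the order were apart.

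RefSeq lists 20 promoter windows for the 10 genes on GRCm38.p6, each from 250 bases before a transcription start to 50 bases after it, and short motifs of the factors at work in this network were searched in them on both strands. The KLF motif CCACCC was in 12 of the 20 windows, against 31.5% of all 32851 windows. The 12 windows belonged to 7 of the 10 genes. These genes have 1 to 5 windows each, so the count of genes cannot be set against the share of windows. The GC content of the 20 windows ranged from 43.7% to 76.7%, and its part in the KLF matches was not tested. Some windows of a gene overlap, and of the 15 distinct KLF matches 2, 1 each of *Lef1* and *Satb1*, were seen in more than 1 window. The STAT motif TTCNNNGAA was in 1 window, that of *Bach2*, against 8.3% of all windows. The FOXO motif TGTTTAC was in 1 window of *Tcf7* (3.65% of all), and the TCF/LEF motif was in 1 window of *Foxp1* as CTTTGAA (5.14% of all) and in 0 windows as CTTTGAT (3.73%). The BACH2/AP-1 motif TGAGTCA was in 0 windows (5.2%). No window of *Foxo1* or *Foxo3* held any of these motifs. A match describes letters in a window and is neither a bound site nor a cause. The 250 bases before the start are printed 5′ to 3′ for *Bach2*, because it holds the only STAT match, for *Klf3*, because it holds 3 KLF matches, and for *Satb1*, the gene with the largest Day 3 genotype difference, at 1 of its 5 starts, with the matches in capitals.
Bach2 (chr4:32417185-32417434, plus strand): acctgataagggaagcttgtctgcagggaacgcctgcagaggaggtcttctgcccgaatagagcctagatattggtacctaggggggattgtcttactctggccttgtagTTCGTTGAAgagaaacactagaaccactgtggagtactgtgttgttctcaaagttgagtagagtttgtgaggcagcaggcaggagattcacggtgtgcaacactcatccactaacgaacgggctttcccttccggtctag
Klf3 (chr5:64803271-64803520, plus strand): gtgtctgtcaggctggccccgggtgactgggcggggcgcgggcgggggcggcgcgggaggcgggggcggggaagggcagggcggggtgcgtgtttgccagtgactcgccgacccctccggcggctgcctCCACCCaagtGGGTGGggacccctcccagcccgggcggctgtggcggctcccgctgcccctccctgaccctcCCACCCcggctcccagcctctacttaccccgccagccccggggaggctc
Satb1 (chr17:51826589-51826838, minus strand): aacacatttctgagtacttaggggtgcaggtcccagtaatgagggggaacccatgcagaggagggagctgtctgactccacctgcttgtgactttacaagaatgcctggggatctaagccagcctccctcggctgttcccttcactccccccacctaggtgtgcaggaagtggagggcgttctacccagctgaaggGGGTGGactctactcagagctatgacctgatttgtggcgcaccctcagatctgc
The matches of the other genes are shown as 30 bases around the motif, again in capitals, for the KLF match of *Klf2* and of *Tob1*, the FOXO match of *Tcf7* and the TCF/LEF match of *Foxp1*.
Klf2 (chr8:72319032-72319061, plus strand): ctataaggcctGGGTGGgccgggccacagc
Tob1 (chr11:94211327-94211356, plus strand): cggggggtgccGGGTGGggagggcgggact
Tcf7 (chr11:52282576-52282605, minus strand): cctttataggaGTAAACAgacccccgccat
Foxp1 (chr6:99266702-99266731, minus strand): gcaagatcacaTTCAAAGgtagatctccca

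Genes that FOXO proteins or KLF2 are known to drive were followed as a list of 15, all of which were tested. On Day 3, 8 were called lower and 2 higher in Il6-/- recipients, with a median log2 fold change of -0.48 against 0.01 over all genes, of which 6.19% were called lower and 7.52% higher. The sphingosine-1-phosphate receptor gene *S1pr1*, which serves egress from lymph nodes, was lower (-1.08, SE 0.10, FDR = 1.1e-05). So were the related receptor gene *S1pr4* (-0.74, SE 0.12, FDR = 8.2e-04), the redox regulator *Txnip* (-0.97, SE 0.13, FDR = 2.3e-04) and the IL-6 receptor gene *Il6ra* (-0.49, SE 0.09, FDR = 0.0022). *Bcl2l11*, which encodes the death protein BIM (1.18, SE 0.15, FDR = 2.2e-04), and the IL-7 receptor gene *Il7r* (0.62, SE 0.16, FDR = 0.017) were higher. On Day 5, 2 of the 15 were called, both lower, a share of 13.3% against 4.61% of all genes called in either direction. These were *Il6ra* (-0.45, SE 0.09, FDR = 0.0096) and *Sesn3* (-0.40, SE 0.10, FDR = 0.035), and the median over the list was -0.20. Between the days, 12 of the 15 were called in each genotype, all higher, against 29.5% of all genes in WT and 30.4% in Il6-/- recipients, with *Bcl2l11* up by 3.10 in WT and *Txnip* by 2.07 in Il6-/- recipients.

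**Figure D4:**
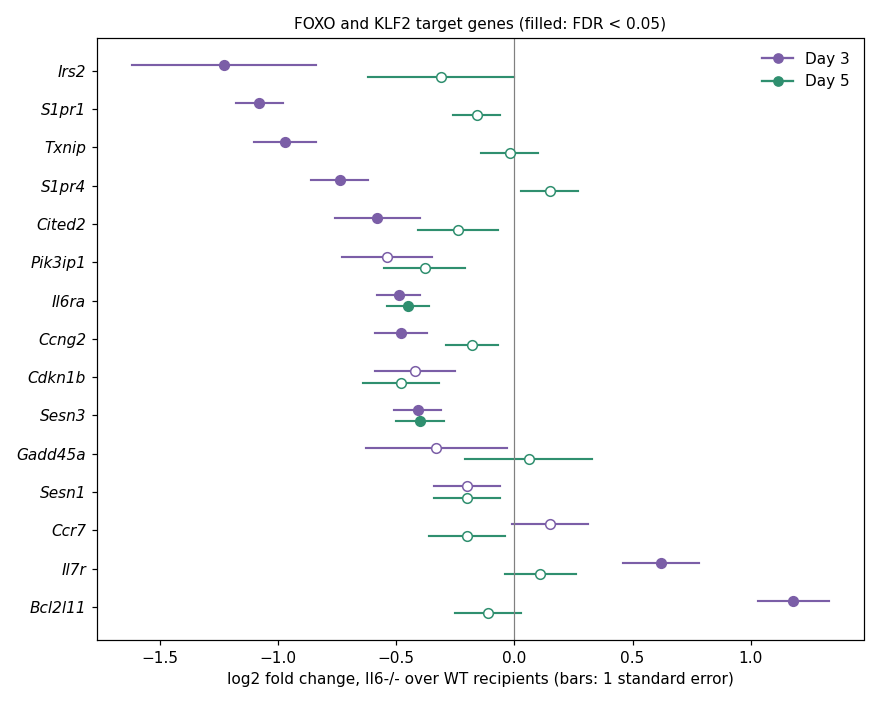
Log2 fold change in OTII cells primed in Il6-/- over WT recipients for the 15 listed FOXO and KLF2 target genes on Day 3 (purple) and Day 5 (green), with bars of 1 standard error and filled points for an FDR under 0.05. On Day 3, 8 genes were called lower, *S1pr1* at -1.08 among them, and 2 higher, whereas on Day 5 *Il6ra* and *Sesn3* were called.

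Upstream of FOXO proteins, 19 kinases and phosphatases of the PI3K pathway were listed and tested. On Day 3, 2 were called, both lower, a share of 10.5% against 13.7% of all genes called in either direction, with a median of -0.05: *Sgk1*, a kinase that phosphorylates FOXO proteins (-1.14, SE 0.18, FDR = 8.7e-04), and *Akt2* (-0.25, SE 0.08, FDR = 0.048). The *Akt2* call was lost in 7 of 12 fits that each left out 1 library, with an FDR of up to 0.17 over all settings. On Day 5 only *Pik3cg* was called, higher (0.42, SE 0.10, FDR = 0.032), a share of 5.26% against 4.61%.

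Of the 14 tested cofactors and readouts of TCF-1 and LEF1, 3 were called on Day 3, all of them lower (median -0.07). That was a share of 21.4%, against 13.7% of all genes called in either direction. *Axin2*, a common readout of beta-catenin with these factors, was lower (-0.82, SE 0.19, FDR = 0.01), as were the coactivator *Bcl9l* (-0.48, SE 0.12, FDR = 0.011) and the corepressor *Tle3* (-0.30, SE 0.09, FDR = 0.038). On Day 5, *Hdac2* was called lower (-0.59, SE 0.15, FDR = 0.034) and *Pygo2* higher (0.30, SE 0.08, FDR = 0.036), a share of 14.3% against 4.61% of all genes. Among 14 genes linked with stem-like or follicular T cells, 6 were called lower and 1 higher on Day 3, with *Tox2* lowest (-2.20, SE 0.18, FDR = 7.7e-06), followed by *Cxcr5* (-1.45, SE 0.16, FDR = 7.1e-05), *Cd27* (-1.19, SE 0.15, FDR = 1.3e-04) and *Bcl6*, the lineage factor of follicular helper cells (-1.15, SE 0.16, FDR = 3.8e-04). *Il7r* and *Ccr7* stand in both this list and that of the FOXO and KLF2 targets. The Day 3 calls of these 14 genes stand against 6.19% of all genes called lower and 7.52% called higher. On Day 5, 3 of the 14 were called (21.4% against 4.61% of all genes), all lower: *Zfp36l2*, which destabilizes mRNAs (-0.94, SE 0.17, FDR = 0.0052), *Myb* (-0.52, SE 0.11, FDR = 0.014) and *Tox2* (-0.68, SE 0.17, FDR = 0.036).

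Of 18 other genes of quiescence tested, 6 were called on Day 3, all lower, and 12 were not called (median -0.23). The share called was 33.3%, against 13.7% of all genes in either direction. The called genes included the pocket protein gene *Rbl2* (-0.67, SE 0.09, FDR = 2.4e-04), the cyclin-dependent kinase inhibitor *Cdkn2d* (-0.71, SE 0.10, FDR = 2.7e-04), the transcription factor *Ets1* (-0.48, SE 0.07, FDR = 4.5e-04) and the inhibitory receptor *Vsir* (-0.77, SE 0.12, FDR = 7.4e-04). On Day 5 only *Btg1*, a relative of *Tob1* in the same antiproliferative family, was called (5.56% of the list against 4.61% of all genes), and it was lower (-1.25, SE 0.22, FDR = 0.0052). Its Day 5 mean was 805 CPM in the WT group and 338 CPM in the Il6-/- group. Of 17 relatives of the 10 genes tested on Day 3, *Foxp4* (0.51, SE 0.10, FDR = 0.0047) and *Btg3* (1.81, SE 0.49, FDR = 0.024; means of 0.898 CPM against 0.256 CPM in WT) were called higher and *Klf13* lower (-0.41, SE 0.11, FDR = 0.022). *Foxp4* was called lower on Day 5 (-0.42, SE 0.10, FDR = 0.034), as was *Btg1*. The share of these relatives called was 17.6% on Day 3, against 13.7% of all genes, and 11.8% on Day 5, against 4.61%.

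Effector transcription factors, which oppose the resting program, changed in both directions. On Day 3, 3 of 15 were called higher in Il6-/- recipients, namely *Tbx21*, the Th1 regulator (2.49, SE 0.29, FDR = 8.7e-05), *Bhlhe40* (1.11, SE 0.32, FDR = 0.031) and *Gata3*, the Th2 regulator (0.34, SE 0.09, FDR = 0.023). A further 3 were lower: *Maf* (-0.97, SE 0.20, FDR = 0.0047), *Ikzf3* (-0.64, SE 0.12, FDR = 0.0022) and *Hif1a* (-0.44, SE 0.08, FDR = 0.0015). Over all genes, 7.52% were called higher and 6.19% lower on Day 3, and 1.27% higher and 3.35% lower on Day 5. On Day 5, *Gata3* was higher (0.35, SE 0.09, FDR = 0.038) and *Id2* (-0.70, SE 0.14, FDR = 0.011) and *Batf* (-0.26, SE 0.07, FDR = 0.048) were lower, and the *Batf* call was kept in 1 of 12 fits that each left out 1 library. Of the other listed genes named above, the Day 5 calls of *Gata3* and *Pygo2* were kept in 4 of these 12 fits and that of *Tox2* in 5, and those of *Foxp4*, *Hdac2*, *Sesn3* and *Pik3cg* in 6 to 8. On Day 3 the calls of *Gata3*, *Btg3* and *Tle3* were kept in 7 and those of *Klf13* and *Bhlhe40* in 8.

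The genes whose pattern over the 12 libraries lay nearest to each of the 10, by the root-mean-square difference of mean-centred log2 CPM, are given as a description. Nearest to *Tcf7* were *Gltp* (0.0685) and *Chmp1b* (0.0706), and *Lef1* was the 4th nearest of 13569 genes (0.0828). Nearest to *Lef1* were *Tmem167b* (0.0741) and *Slc44a2* (0.0822), with *Tcf7* 5th. *Foxo1* lay nearest to *Tpd52* (0.0866) and *Ip6k1* (0.0872), with *Tcf7* 12th. *Satb1* lay nearest to *Rbms1* (0.199) and *Cpm* (0.202), *Klf2* to *Smad3* (0.218) and *Cmas* (0.227), and *Tob1* to *Gm5785* (0.221) and *Zfp459* (0.223). The deviation of a gene from its own mean was 0.51 for *Satb1*, 0.53 for *Klf2* and 0.64 for *Tob1*, against 0.21 for *Tcf7*, 0.24 for *Lef1* and 0.25 for *Foxo1*. The differences grow with that deviation, so they do not rank how close the neighbours of different genes are. *Foxo3* lay nearest to *Bnip3l* (0.0974) and *Rab37* (0.104), *Foxp1* to *Ifi203* (0.0897) and *Foxn3* (0.0956), *Klf3* to *Rb1cc1* (0.127) and *Dapk3* (0.148), and *Bach2* to *Vps37b* (0.169) and *Gimap8* (0.204). The exons of *Bach2* overlap those of its antisense gene *Bach2os* over 537 bp, 5.35% of their length, and reads of the 2 genes cannot be told apart there without strand. The exons of *Klf2* and *Tob1* overlap those of no other annotated gene, and those of the other 7 overlap genes that were not tested here.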

How the data were processed

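RNA-seq libraries of 12 samples of sorted OTII cells, 3 in each of 4 groups of recipient genotype and day, were analyzed. The ultra-low input libraries of poly(A) RNA were sequenced single-end at 50 bp. Per the study's methods and the submitters' processing notes, reads were trimmed with Trim Galore 0.4.4, aligned to GRCm39 with STAR 2.5.2a and counted with HTSeq 0.6.1p1, ignoring strand. What the authors deposited per sample is a file of raw read counts by gene symbol, with 52.5% to 62.2% of the reads in a file assigned to genes and the rest left out. A deposited table of log2 CPM was not used. Gene positions and exon lengths came from GENCODE vM39 on GRCm39 and promoter windows from RefSeq on GRCm38.p6.

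Counts were fitted in R 4.3.3 with edgeR 4.0.16 (filterByExpr, TMM, quasi-likelihood F test, 1 model of 12 libraries with 1 coefficient per group, median biological coefficient of variation 0.132). P-values were adjusted by Benjamini-Hochberg over 13570 genes (FDR). On counts simulated for the Day 3 genotype comparison over 13256 genes, the fit called 94.0% of genes changed 2-fold and 61.0% of those changed 1.5-fold, and 1.90% of the calls were false. The simulated counts were independent draws at the fitted spread, with 200 of the more highly expressed genes changed. They held no pairing, outlying library or other cells, so these rates describe that setting and not the real libraries. Replicates of a group differed by more than sampling noise (6.09 to 38.3 chi-square per gene), so none was counted as a duplicate. The alternatives were other scalings and filters, DESeq2 1.42.0, limma-voom of limma 3.58.1, the replicate number as a block, a GC-content offset (12618 genes had a GC content), both together, the groups compared alone, and leaving out each library.

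Groups of a day share replicate numbers in the labels. Deviations of same-numbered libraries correlated at 0.24, 0.21 and 0.13 on Day 5, so these were taken as paired, and at 0.03, 0.06 and 0.03 on Day 3, which were not. The labels do not state a pairing, and it was inferred from these same libraries. The main fit had no block on either day, so its Day 5 calls leave out this pairing. The fit with the replicate number as a block is given beside it.

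The 10 genes and all lists were chosen with earlier results of these data known. The text names the 10 genes, up to 4 genes per direction with the smallest p in each list and comparison among those called, the 2 nearest genes of each, genes with overlapping exons, and markers of other cell types that moved with a result. Of the listed genes, 6 relatives of the 10 genes, 3 cofactors and 1 other gene of quiescence were not tested, because they had at most 11 reads in a library or were not in the files under the listed symbol. A further gene of the lists is not reported here.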

Additional observations from a re-analysis of the deposited data

Results flagged for a closer look

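None of the 10 genes had a genotype change that was called as different between the days, by the edgeR test of the genotype change on Day 3 minus that on Day 5. Of the listed genes named in the report for a call in the Day 3 or Day 5 genotype comparison, 15 did. The values are log2 differences. The difference was negative for the sphingosine-1-phosphate receptor genes *S1pr1* (-0.93, FDR = 0.0041) and *S1pr4* (-0.89, FDR = 0.0095), and for *Txnip* (-0.95, FDR = 0.0094). It was negative as well for *Cxcr5* (-1.55, FDR = 0.0035), *Tox2* (-1.52, FDR = 0.0053) and *Bcl6* (-1.12, FDR = 0.014), for the quiescence genes *Rbl2* (-0.76, FDR = 0.0055), *Cdkn2d* (-0.70, FDR = 0.011), *Vsir* (-0.63, FDR = 0.046) and *Ets1* (-0.39, FDR = 0.038), and for *Pik3cg* (-0.70, FDR = 0.016). It was positive for *Bcl2l11* (1.29, FDR = 0.005), *Id2* (0.98, FDR = 0.014), *Foxp4* (0.93, FDR = 0.005) and *Hdac2* (0.82, FDR = 0.035). Of all genes tested, 4.92% were called in this comparison. Naming genes for a call on 1 of the days favours a difference between the days. The 15 genes therefore cannot be set against that share or against the 10 genes. With 3 libraries per group, no test for an outlying library was made.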

How the results depend on the processing

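Of 1140 values of the 10 genes under alternative settings, 1045 kept their direction and their side of the threshold, 28 lost a call, 53 gained one and 14 changed sign. None of the sign changes concerned a called value, and the causes were not tested. They were *Foxo3* in Il6-/- against WT recipients on Day 5 (0.02 without scaling, -0.21 to 0.08 without 1 library) and the interaction of *Foxo1* (-0.03 without scaling, -0.05 to 0.17 without 1 library), of *Bach2* (-0.02 to 0.52) and of *Klf2* (-0.52 to 0.07). Between the days, *Satb1* changed sign in WT (0.11 with upper-quartile scaling, -0.22 to 0.02 without 1 library) and in Il6-/- recipients (-0.05 to 0.25 without 1 library), and *Klf3* in Il6-/- recipients (-0.03 without the low-count filter, -0.09 to 0.22 without 1 library).

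On Day 3, 5 of the 10 genes were lower (3 with the GC-content offset, without *Foxo1* and *Klf2*, 4 with DESeq2 or limma-voom, without *Klf2*, 6 in the groups compared alone, with *Bach2*, and 3 to 5 without 1 library; without the low-count filter *Bach2* replaced *Foxo1*) and 1 was higher, *Foxp1*, with the replicate block, alone or with the GC-content offset. On Day 5, 2 were lower, but 6 without the low-count filter, 5 with DESeq2, 6 with the replicate block, 5 with the block and the GC-content offset, 3, with *Klf3*, under upper-quartile scaling or the filter at 1 CPM, 1 in the groups compared alone and 1 to 4 without 1 library. In the interaction 0 were called, but 2 positive without the filter, 2 with the block and 2 with the block and offset, 1 negative without scaling or with DESeq2, and 0 to 1 positive without 1 library. Between the days 0 were called lower, except *Klf2* under some settings in WT recipients (1 gene without the filter, with the GC-content offset or with the block and offset, and 0 to 1 without 1 library) and in Il6-/- recipients (1 without the filter). Genes called higher on Day 5 numbered 6 in each genotype, 6 to 7 without 1 library, and 5 to 8 in WT and 6 to 8 in Il6-/- recipients under the other settings, the 8 with upper-quartile scaling and, in WT, without scaling.

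Over all genes, 1861 were called on Day 3 (942 to 2042 without 1 library) and 626 on Day 5 (1397 without the filter, 1127 with DESeq2, 1592 with the block, 1607 with block and offset, 359 in the groups compared alone, 225 to 1169 without 1 library). The interaction was called for 668 genes (1300, 1132, 1564 and 1532 under the first 4 of these settings, and 235 to 943 without 1 library). The lowest depth was that of *Tob1* and *Foxo3*, with 82 and 131 reads in their lowest libraries.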
